A study of Homo sapiens with 6 samples.

Results

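NMD3, EIF6, SBDS, LTV1, BYSL, TSR1, PNO1, NOB1, RIOK1 and RIOK2 are 10 genes, of 58051 in the count table, whose proteins bring the precursors of the large (60S) and small (40S) ribosomal subunits out of the nucleus or finish them afterwards. They were chosen by gene symbol, from what the proteins are known to do in ribosome assembly, and each symbol was tied to 1 Ensembl gene identifier. RNA was measured in 6 libraries of DLD-1, an established human colorectal adenocarcinoma cell line. All 6 cultures carried AID-NeonGreen-TPR: the gene for TPR, a protein of the basket on the nuclear face of the nuclear pore, was tagged with an auxin-inducible degron (AID) and the fluorescent protein NeonGreen. Per the study's methods both copies of the gene were tagged at their own locus, and the cells also made TIR1, the plant protein that lets auxin trigger destruction of an AID-tagged protein, from the RCC1 locus. All 6 cultures also received Leptomycin B (LMB), a drug that blocks the export receptor CRM1, at 200 nM for 3 h. The LMB group of 3 libraries received nothing more, and the LMB+auxin group of 3 libraries received 1 mM auxin for the last 2 h. The labels are not uniform: the sample titles give 2 h for both groups, and a treatment protocol shared by all samples speaks of auxin without exception. Groups and times here follow each sample's own treatment and incubation entries, and every comparison rests on those. In bulk RNA, fewer cells with a transcript and less of it per cell cannot be told apart. Every comparison asks what loss of TPR did to these transcripts while CRM1 was blocked. The effect of LMB alone or of auxin alone cannot be read from these 6 libraries. The study reports elsewhere on LMB treatment and on TPR loss without LMB.

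CRM1, encoded by XPO1, carries proteins with a nuclear export signal through the pore together with Ran bound to GTP. A pre-ribosome is too large to pass alone and has no export signal of its own, so adaptor proteins on its surface supply one. NMD3 is the adaptor of the pre-60S particle, and RIOK2 and PDCD2L bind CRM1 on the pre-40S particle. In the cytoplasm the travelling factors are stripped off and return to the nucleus, and in colorectal cancer lines, as in other fast growing cells, the whole assembly line is busy.

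The promoters of these genes differed in sequence. RefSeq promoter windows on GRCh38.p14, from 250 bases before to 50 bases after the start of each gene, were found for all 10. They were searched on both strands for 7 motifs known from growth and housekeeping genes. The short stretches below were chosen for display after the matches were seen, since they show the E-box CACGTG, which MYC-type factors bind, the ETS motif CCGGAAG and the NRF1 motif GCATGCGC. Each is written in the direction of the gene, with the motif in capitals. In NOB1 the capitals hold 2 overlapping copies, 1 on each strand.
PNO1, chr2:68157886-68157913, plus strand: gtgcagctgcgCACGTGtttcagccggc
LTV1, chr6:143843355-143843382, plus strand: tcctggggctgCACGTGtggtgaggcct
BYSL, chr6:41921516-41921543, plus strand: tcttcagtcccCACGTGcgatccttccc
NOB1, chr16:69754924-69754951, minus strand: aagctccgtGCGCATGCGCgctcccctc
TSR1, chr17:2336459-2336485, minus strand: CCGGAAGcgcttgtcctggcCCGGAAG
The E-box lay within the first bases of the transcript, beginning at position 10 in PNO1 and at position 29 in both LTV1 and BYSL. It was found in 3 of the 10 genes and in 7.26% of all 35116 promoter windows. A gene was counted if any of its windows held the motif, while the share is per window. EIF6 had more than 1 window, so the counts of genes and the shares are not fully alike. CCGGAAG was found in 4 of the 10 genes (LTV1, TSR1, RIOK1 and EIF6) and in 10.3% of all promoters. GCATGCGC was in 1 (NOB1) and in 3.05% of all. CCCGCCCC, a motif of SP1, was in 2 (22.6% of all), and ATTGG, the CCAAT box read on the other strand, was in 2 (34.6% of all). GCCATNTTG, a motif of YY1, was in 1 (2.92% of all), and TTTCGCGC, a motif of E2F factors, was in 0 (0.515% of all). Within each group the RNA of PNO1 and LTV1 was lowest with replicate number 2, and that of BYSL was highest with it. Of these 3 genes only PNO1 differed between replicate numbers (adjusted p = 1.8e-10 by edgeR). LTV1 (adjusted p = 0.158 by edgeR) and BYSL (adjusted p = 0.055 by edgeR) did not pass. Any link between these motifs and the RNA levels was not tested.

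Total counts per library ran from 28261903 to 35992425, and the 10 genes had between 583 (BYSL) and 11608 (TSR1) counts in a library. Markers of colon epithelium were present, with KRT8 at 3246 to 3640 CPM (counts brought to a common library size, here by TMM, the trimmed mean of M values) and EPCAM at 457 to 501 CPM, but LGALS4 was at only 0.138 to 0.337 CPM. The 7 markers of blood, vessel, fibroblast and endocrine cells summed to at most 2.08 CPM in a library. The TPR transcript was at 163, 157 and 180 CPM in the LMB libraries and 192, 184 and 186 in the LMB+auxin libraries. It was higher with auxin in 3 of 3 pairs, with a log2 fold change of 0.17 ± 0.071 (SE; adjusted p = 0.954 by edgeR) that passed the test with the replicate block (0.17 ± 0.047; adjusted p = 0.013 by edgeR) at a fold below 1.3. Auxin acts on the TPR protein, so this transcript does not check the depletion. Libraries of the 2 groups that carry the same replicate number deviated together from their group means and are called a replicate pair here. The study's methods call its RNA-seq replicates independent and biological. The labels number them and do not say what separates them, so p-values measure the spread between these samples. In edgeR that spread is estimated in part from other genes. The median degrees of freedom were 9.5 without the replicate block and 113 with it, so errors of the block fit rest mostly on other genes.

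None of the 10 genes passed the test between LMB and LMB+auxin. Groups were compared with the quasi-likelihood test of edgeR over 16974 genes, and a gene was called at an adjusted p under 0.05 if the groups also differed by 1.3-fold or more. That rule called 0 of the 10 genes, and 1 of the 16974 genes (0.00589%). At an unadjusted p under 0.05 the count was 0 of 10, beside 4.37% of all genes, and DESeq2 and limma-voom also called 0 of 10. With the replicate pairs as a block in the fit the spread was much smaller. There 1.19% of all genes were called (0.3% higher and 0.89% lower with auxin) and 0 of the 10. At so low a share, 0 of 10 does not set these genes apart from others. NMD3 and RIOK2 were the 2 with an unadjusted p under 0.05 in the block fit, where 19.9% of all genes had one. The log2 fold change, LMB+auxin over LMB, was above 0 for 8 genes and below 0 for 2, with a median of 0.076 beside -0.0027 over all tested genes. It ran from -0.061 (EIF6 and BYSL) to 0.14 (RIOK2). The 95% intervals limit what could have been missed: for 9 of the genes the whole interval lay inside a 1.3-fold change, and for PNO1 it reached past that line on the upper side only, to 0.44. With the replicate block, 0 of the 10 intervals reached a 1.3-fold change.

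**Figure D1:**
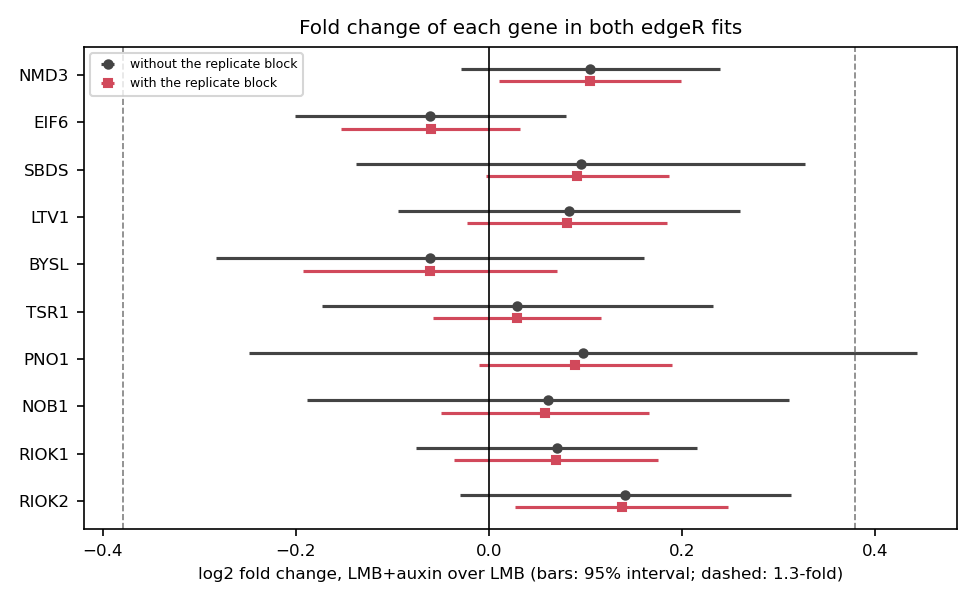
Log2 fold change, LMB+auxin over LMB, of each gene (x axis) from the edgeR fit without (dark circles) and with (red squares) the replicate block. Bars are 95% intervals and dashed lines mark a 1.3-fold change; only the PNO1 interval without the block, which ends at 0.44, crosses one of them.

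The 3 factors of the pre-60S particle are NMD3, EIF6 and SBDS. NMD3 (ENSG00000169251, chromosome 3, 161104696 to 161253532, plus strand of GRCh38) recruits CRM1 to the particle. Its level was 114, 116 and 117 CPM in LMB libraries 1, 2 and 3 and 128, 123 and 123 CPM in LMB+auxin libraries 1, 2 and 3. The groups did not overlap, and the spread within each was small. The log2 fold change was 0.10 ± 0.060 (SE, n = 3 and 3; adjusted p = 0.954 by edgeR), and with the replicate block 0.10 ± 0.048 (adjusted p = 0.196 by edgeR).

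EIF6 (ENSG00000242372, chromosome 20, 35278907 to 35284985, minus strand) keeps the pre-60S particle from joining a 40S subunit too early. It was at 169, 159 and 164 CPM with LMB and 152, 158 and 162 CPM with LMB+auxin. The auxin library was the lower of the pair in all 3 pairs, but the groups overlapped, since LMB library 2 lay below LMB+auxin library 3. The log2 fold change was -0.061 ± 0.062 (SE; adjusted p = 0.954 by edgeR). EIF6 shares 17.3% of its exonic bases with a same-strand protein-coding gene, ENSG00000261582, so reads there cannot be assigned to one of them.

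SBDS (ENSG00000126524, chromosome 7, 66987680 to 66995693, minus strand), the gene mutated in most patients with Shwachman-Diamond syndrome, encodes a protein that releases eIF6 in the cytoplasm together with the GTPase EFL1. It was at 128, 109 and 129 CPM with LMB and 146, 113 and 132 CPM with LMB+auxin. Both libraries of replicate number 2 were the lowest, so the groups overlapped although the auxin library was the higher in 3 of 3 pairs. The log2 fold change was 0.095 ± 0.10 (SE; adjusted p = 0.955 by edgeR). SBDS has a near-identical copy, SBDSP1, that had a mean of 792 counts, equal to 20.1% of the SBDS count, and 11.6% of its exonic bases overlap TYW1 on the opposite strand, so the values of SBDS are uncertain to the extent that reads were split between these genes.

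The other 7 genes act on the pre-40S particle. LTV1 (ENSG00000135521, chromosome 6, 143843338 to 143863812, plus strand) holds the beak of the particle in an immature form until CK1 kinases release it. It was at 63.5, 63.0 and 69.7 CPM with LMB and 74.7, 63.8 and 69.4 CPM with LMB+auxin. The groups overlapped, with the first LMB+auxin library the highest of the 6, and the log2 fold change was 0.083 ± 0.079 (SE; adjusted p = 0.954 by edgeR). LTV1 shares 34.7% of its exonic bases with 2 other same-strand genes, ENSG00000257065 and ENSG00000280148.

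BYSL (ENSG00000112578, chromosome 6, 41921499 to 41933046, plus strand), also called bystin, joins the particle in the nucleolus. It was the gene with the lowest counts, at 21.9, 24.7 and 22.6 CPM with LMB and 19.6, 24.2 and 22.5 CPM with LMB+auxin. The auxin library was the lower one in all 3 pairs by little, while the groups overlapped, and the log2 fold change was -0.061 ± 0.099 (SE; adjusted p = 0.964 by edgeR). TSR1 (ENSG00000167721, chromosome 17, 2322396 to 2336657, minus strand), which blocks the site where translation GTPases would bind, was at 312, 273 and 322 CPM with LMB and 324, 275 and 326 CPM with LMB+auxin. The groups overlapped, since both libraries of number 2 were low. Its log2 fold change was the closest to 0, at 0.029 ± 0.090 (SE; adjusted p = 0.982 by edgeR). TSR1 shares 23.9% of its exonic bases with SRR on the opposite strand, and the strand setting of the counting is not given in the sources used here.

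PNO1 and NOB1 work as a pair. NOB1 (ENSG00000141101, chromosome 16, 69741871 to 69754926, minus strand) is the nuclease that makes the final cut of the small-subunit rRNA, and PNO1 (ENSG00000115946, chromosome 2, 68157888 to 68176238, plus strand) is its partner that shields the cleavage site. PNO1 was at 93.4, 69.8 and 84.1 CPM with LMB and 101, 68.1 and 95.4 CPM with LMB+auxin. NOB1 was at 47.4, 57.5 and 51.7 CPM with LMB and 46.8, 62.4 and 54.1 CPM with LMB+auxin. The 2 transcripts ran opposite ways over the replicate numbers in both groups: where PNO1 was lowest, in the libraries of number 2, NOB1 was highest. Neither passed the test between LMB and LMB+auxin. The log2 fold change was 0.097 ± 0.15 (SE) for PNO1 (adjusted p = 0.963 by edgeR). For NOB1 it was 0.061 ± 0.11 (SE) (adjusted p = 0.966 by edgeR). The 95% interval of PNO1 was wide, from -0.25 to 0.44, and its upper end lay past a 1.3-fold change. NOB1 shares 20.4% of its exonic bases with NQO1-DT on the opposite strand, and PNO1 shares 8.9% with ENSG00000273398, also on the opposite strand.

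RIOK1 (ENSG00000124784, chromosome 6, 7389793 to 7418037, plus strand) and RIOK2 (ENSG00000058729, chromosome 5, 97160867 to 97183247, minus strand) are atypical kinases of the late pre-40S particle, and RIOK2 carries an export signal that CRM1 reads. RIOK1 was at 54.96, 57.0 and 57.6 CPM with LMB and 61.2, 56.7 and 60.04 CPM with LMB+auxin, with overlapping groups and a log2 fold change of 0.070 ± 0.065 (SE; adjusted p = 0.954 by edgeR). RIOK2 was at 47.8, 48.5 and 49.5 CPM with LMB and 58.9, 50.9 and 51.2 CPM with LMB+auxin. Its groups did not overlap, and it had the highest fold change of the 10 genes, a log2 value of 0.14 ± 0.076 (SE; adjusted p = 0.954 by edgeR). With the replicate block this was 0.14 ± 0.056 (adjusted p = 0.139 by edgeR). Groups without overlap were thus seen for 2 of the 10 genes, NMD3 and RIOK2, beside 11.5% of all tested genes. Those of PDCD2L, which also binds CRM1 on the pre-40S particle, overlapped. With the replicate block other genes came close to NMD3 (0.10 ± 0.048). SBDS had 0.091 ± 0.048 (adjusted p = 0.269 by edgeR) and PNO1 had 0.089 ± 0.050 (adjusted p = 0.310 by edgeR). NMD3 and RIOK2 share 3.9% and 4.2% of their exonic bases with genes on the opposite strand, and RIOK1 and BYSL share 0%. The auxin library was the higher one in 3 of 3 pairs for NMD3, SBDS, RIOK2 and TSR1 (4 of 10, beside 21.3% of all tested genes) and in 0 of 3 for EIF6 and BYSL (2 of 10, beside 20.5%).

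**Figure D2:**
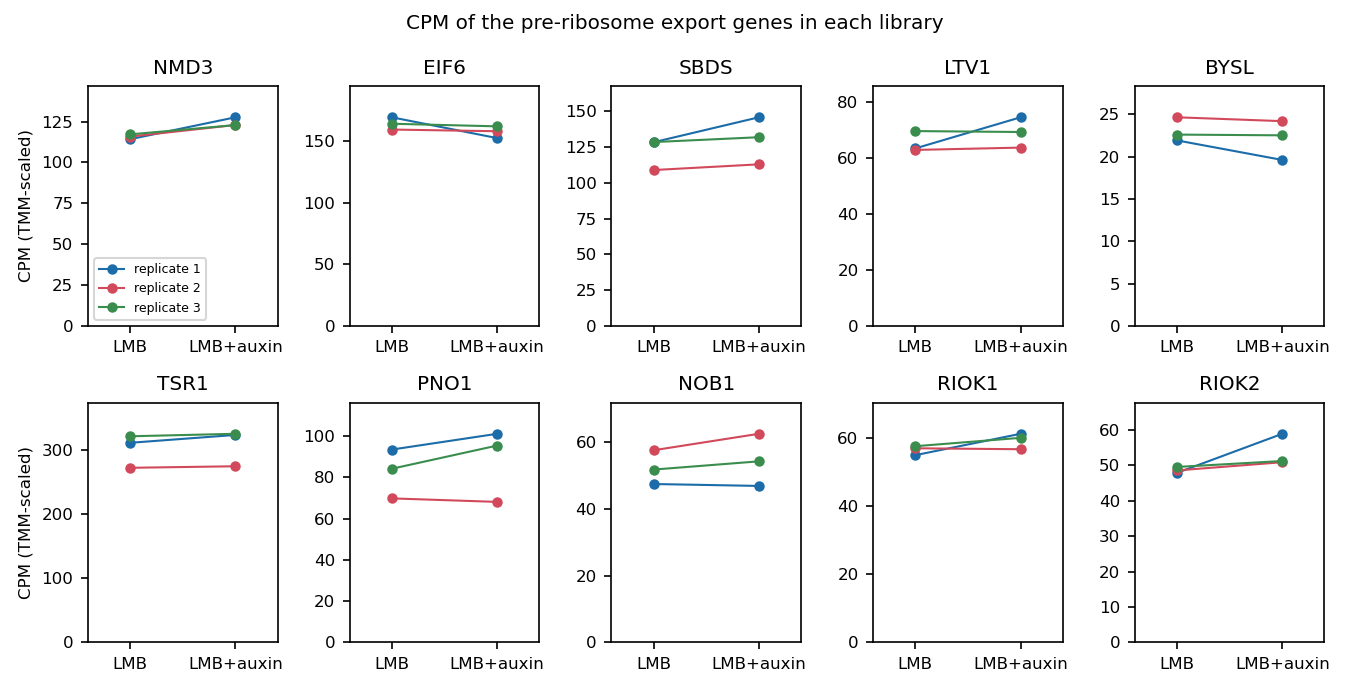
CPM (TMM-scaled, y axis from 0) of each gene in the LMB and LMB+auxin libraries, 1 panel per gene, with lines joining libraries of the same replicate number. The first pair slopes most in several panels (RIOK2 goes from 47.8 to 58.9), and the second pair lies apart from the others for PNO1, SBDS and TSR1 (below) and for NOB1 (above).

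Most of the difference sat in 1 pair. The median log2 difference of the 10 genes between the auxin and the LMB library was 0.13 in pair 1, 0.016 in pair 2 and 0.043 in pair 3, beside -0.014, 0.012 and -0.00062 over all tested genes. In pair 1 RIOK2 differed by 0.30, LTV1 by 0.23, SBDS by 0.18 and NMD3 by 0.16 on the log2 scale, while EIF6 and BYSL differed by -0.15 and -0.16. In the other pairs no gene was past 0.12 either way except PNO1, at 0.18 in pair 3. With the first pair left out, the median log2 fold change of the 10 genes in the block fit was 0.036, beside 0.0061 over all tested genes. Without the first LMB+auxin library the fit with no block gave 0.022, beside 0.0039 over all tested genes.

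The order of the fold changes was close to the order of base composition. GC content of the longest transcript ran from 36.5% in RIOK2 to 60.3% in EIF6, and the genes with the highest GC content, EIF6 and BYSL (56.7%), were the 2 with a negative fold change. Spearman's rho between GC content and the log2 fold change of the block fit was -0.90 over the 10 genes. Over the 16748 tested genes with a GC value it was -0.42. These are descriptions with no test, since all genes share the same 6 libraries. The median log2 fold change of all tested genes was 0.044 under 40% GC, 0.050 from 40% to 45% and 0.030 from 45% to 50%, and then -0.0094, -0.061 and -0.12 in the bins from 50%, 55% and 60%. In pair 1 alone these medians ran from 0.11 under 40% GC to -0.27 at 60% and above. A smooth trend on GC content was then taken out of each library, a correction chosen after seeing the data. With it the median of the 10 genes was 0.048, beside 0.012 over all tested genes. EIF6 stood at 0.035 and 9 of 10 values were above 0, with 0 of 10 genes called. With the replicate block as well the median was 0.047, beside 0.011 over all tested genes, and again 0 were called. An unadjusted p under 0.05 by edgeR was then found for 4 of the 10 genes, against 2 without the correction. Of all 16748 genes 3457 had one. In the block fit the correction moved NOB1 up from 0.058 to 0.096 and RIOK2 down from 0.14 to 0.11. The part of base composition in the differences between groups was not otherwise tested.

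**Figure D3:**
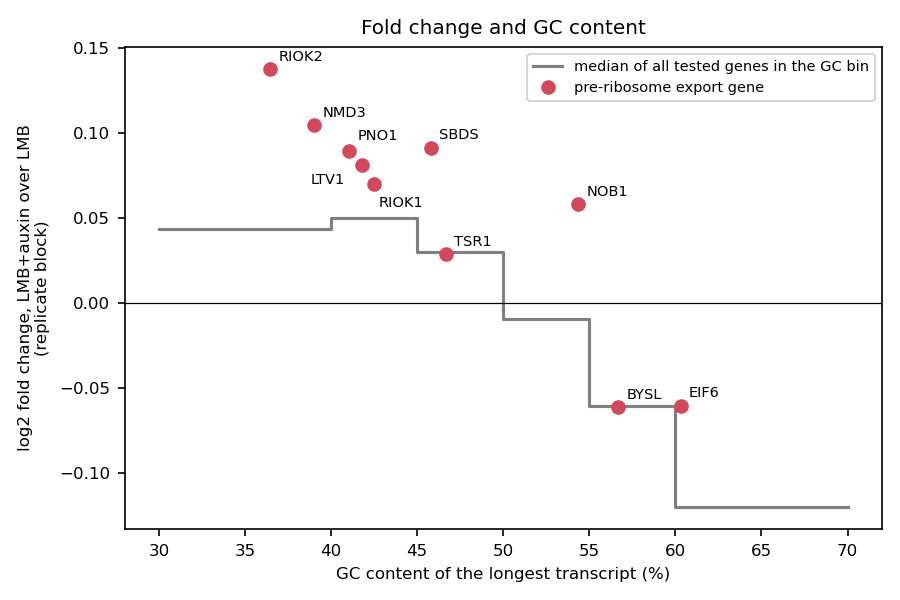
GC content of the longest transcript (x axis, percent) against the log2 fold change of the block fit (y axis). Red points are the 10 genes, and the grey steps are medians of all tested genes in 6 GC bins, the outer ones (under 40% and from 60%) drawn from 30% and to 70%. RIOK2, at the lowest GC content, is the highest point, and BYSL and EIF6, at the highest, are the only ones below 0; SBDS and NOB1 lie above their left neighbours. The grey medians are above 0 up to 50% GC and below 0 from there.

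Replicate pairs differed in more of these genes than the groups did. Tested in the block fit of edgeR on both replicate terms at once, 4 of the 10 genes differed between pairs at an adjusted p under 0.05. Of all tested genes 33.8% did, so the share is near that of genes in general. The pairing was accepted from these same counts, so the p-values between pairs are not independent support for it. PNO1 stood out (adjusted p = 1.8e-10 by edgeR): both libraries of number 2 were 0.44 lower, on the log2 scale, than the mean of numbers 1 and 3. SBDS was 0.27 lower (adjusted p = 3.6e-05 by edgeR) and TSR1 0.23 lower (adjusted p = 1.9e-04 by edgeR). NOB1 was 0.26 higher there (adjusted p = 6.7e-05 by edgeR). BYSL, 0.17 higher, missed the threshold (adjusted p = 0.055 by edgeR), and NMD3, EIF6 and RIOK1 differed by less than 0.04 either way. The calls rested on replicate number 2: without it, 0 of the 10 genes differed between numbers 1 and 3, beside 2.56% of all genes, while 5 differed without number 1 (32.2% of all genes) and 4 without number 3 (26.8%). Spearman's rho between GC content and this difference was 0.38 over the 10 genes and 0.21 over all tested genes, and with the GC correction the same 4 genes differed, beside 42.2% of all tested genes.

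**Figure D4:**
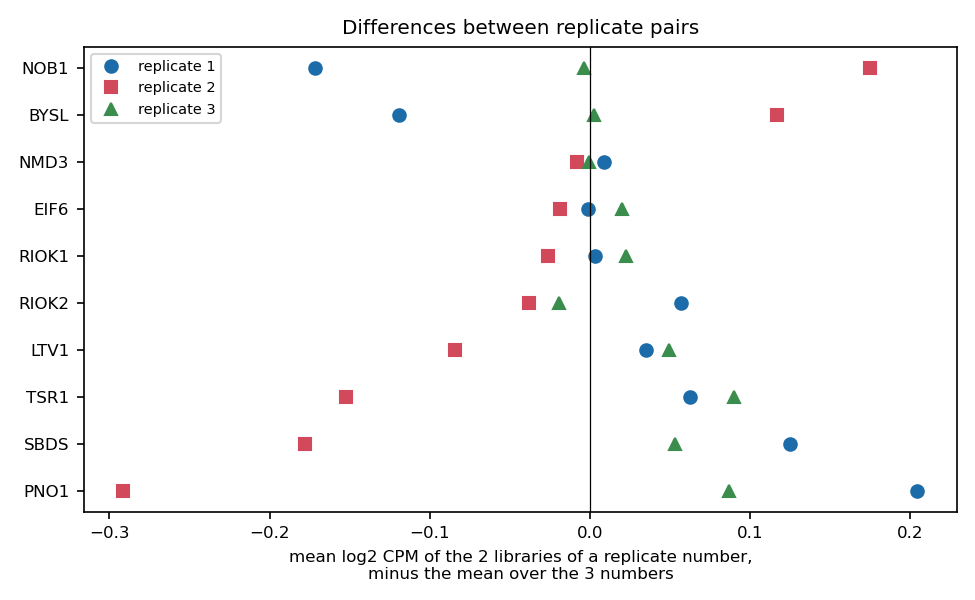
Mean log2 CPM of the 2 libraries of each replicate number, minus the mean over the 3 numbers (x axis), for each gene, ordered by the value of number 2. Red squares (number 2) lie far left for PNO1 and SBDS and far right for NOB1, and the 3 symbols nearly coincide for NMD3.

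Levels differed between the genes much more than between libraries. Expressed per kilobase of exonic bases, the mean over the 6 libraries ± SD (n = 6, both groups) was 98.2 ± 3.50 CPM per kb for EIF6, 63.5 ± 5.15 for TSR1, 44.95 ± 4.79 for SBDS, 36.3 ± 2.53 for LTV1, 32.4 ± 5.26 for PNO1, 25.4 ± 2.86 for NOB1, 24.7 ± 1.06 for NMD3, 19.7 ± 0.786 for RIOK1, 11.7 ± 0.929 for BYSL and 9.32 ± 0.729 for RIOK2. The highest level was thus 10.5 times the lowest. In that order the library ranges of SBDS and LTV1, LTV1 and PNO1, PNO1 and NOB1, NOB1 and NMD3, and BYSL and RIOK2 overlapped, and those of the other neighbours did not. EIF6, the factor that must leave before a 60S subunit can work, thus had the highest transcript level per length and the export kinase RIOK2 the lowest. Against all tested genes with a length, EIF6 lay at the 97.2 percentile, TSR1 at the 95.4, NMD3 at the 86.8 and RIOK2 at the 67.6. With the length of the longest transcript in place of all exonic bases NMD3 moved up to rank 4 at 39.2 CPM per kb, and LTV1 moved down to rank 6. BYSL and RIOK2 then lay at 13.2 and 13.1 CPM per kb, so which of them was the lowest is not settled.

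Genes that work beside these 10 were compared in the same fits. Of the 18 listed other factors of the pre-40S particle, 37 of the pre-60S particle, 38 of the small-subunit processome (the nucleolar forerunner of the 40S subunit), 18 of CRM1 and Ran transport and 15 of RNA polymerase I, all but PWP2 of the processome had enough counts, and 0 of these 125 tested genes were called with or without the replicate block, nor by DESeq2. An unadjusted p under 0.05 without the block was found for 2 other pre-60S factors and 2 processome genes, beside 4.37% of all tested genes. With the block it was found for 37 of the 125 (29.6%; 32 higher and 5 lower with auxin), beside 19.9% of all tested genes (8.11% higher and 11.8% lower), and the adjusted p of most of these missed the threshold. The log2 fold change was above 0 in 90 of them and below 0 in 35, beside 8354 and 8620 of all tested genes. Medians were 0.026 for the other pre-40S factors, 0.074 for the other pre-60S factors, 0.060 for the processome, 0.043 for CRM1 and Ran transport and 0.059 for RNA polymerase I, and the median GC content of these lists ran from 43.1% (the processome) to 52.3% (the other pre-40S factors), beside 48.3% for all tested genes.

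Direct partners of the 10 genes had small estimated differences. XPO1, which encodes CRM1 itself, was at 973, 876 and 984 CPM with LMB and 1067, 850 and 945 CPM with LMB+auxin, a log2 fold change of 0.015 ± 0.092 (SE; adjusted p = 0.991 by edgeR). EFL1, which acts with SBDS, had a log2 fold change of 0.053, and PDCD2L, the other pre-40S adaptor for CRM1, one of 0.089. The kinase genes CSNK1D and CSNK1E, whose proteins release LTV1, had -0.021 and -0.059, and the latter was the lowest of the other pre-40S factors. RRP12, an export factor of the pre-40S particle, had -0.0094, and RIOK3, the third RIO kinase, 0.018. On the pre-60S side the GTPases LSG1, which drives NMD3 off the particle, and GTPBP4 had 0.080 and 0.12, ZNF622 had -0.033 and PA2G4 had 0.074. PHAX, the CRM1 adaptor for small nuclear RNAs, had 0.031. None of these passed the test, with adjusted p of at least 0.954 by edgeR.

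At the ends of the lists KRR1 was the highest of the other pre-40S factors, with a log2 fold change of 0.11. TEX10 (0.14) and ZNF593 (-0.24) were the ends among the other pre-60S factors, NOL10 (0.16) and TBL3 (-0.18) among processome genes, EIF4E (0.13) and RANGAP1 (-0.068), which encodes the GTPase activator of Ran, in CRM1 and Ran transport, and POLR1E (0.18) and TAF1C (-0.20) in RNA polymerase I. None passed the test without the block. By adjusted p alone, in the block fit of edgeR, 6 list genes passed 0.05, beside 4.39% of all tested genes (1.12% higher and 3.27% lower), and each of the 6 had a fold below 1.3: NLE1 (adjusted p = 0.044), ZNF593 (adjusted p = 0.037) and TBL3 (adjusted p = 0.031) on the lower side, and WDR75 (adjusted p = 0.0498), NOL10 (adjusted p = 0.047) and POLR1E (adjusted p = 0.033) on the higher side. NLE1 was at 35.0, 30.5 and 33.8 CPM with LMB and 29.5, 27.4 and 29.8 CPM with LMB+auxin, so its groups did not overlap. TBL3 was at 86.0, 78.5 and 81.5 CPM with LMB and 65.4, 76.8 and 75.3 CPM with LMB+auxin, without overlap as well. POLR1E was at 49.3, 43.8 and 49.3 CPM with LMB and 56.7, 48.8 and 56.1 CPM with LMB+auxin, and there the groups overlapped.

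Genes of these lists were mostly lower in replicate number 2 as well. Between pairs 9 of 18 other pre-40S factors, 21 of 37 other pre-60S factors, 20 of 37 processome genes, 10 of 18 genes of CRM1 and Ran transport and 8 of 15 of RNA polymerase I differed at an adjusted p under 0.05 by edgeR, beside the 33.8% of all genes. Those that differed were lower in number 2 in 8, 20, 18, 8 and 8 cases. Over all tested genes 5733 differed, 2731 of them lower and 3002 higher in number 2. The median log2 difference of number 2 from the mean of the others lay between -0.13 and -0.16 in these 5 lists, at -0.049 over the 10 genes and at -0.013 over all tested genes. The partners RRP12, LSG1, GTPBP4 and XPO1 were among those lower in number 2, and CSNK1D, like NOB1, was higher. The genes whose log2 CPM over the 6 libraries was most like the mean of the 10 genes were LCLAT1, GHRL, WDHD1, GCLC and DCUN1D5. Their Pearson's r was 0.997 to 0.999 over 6 libraries, and 846 of the 16964 other tested genes had an r over 0.9. GHRL was at only 0.70 to 1.38 CPM. That mean does not stand for each of the 10 genes, since 19 of their 45 pairs had a negative r. Against the mean of the remaining genes, r was -0.40 for EIF6, -0.72 for NOB1 and -0.87 for BYSL, and above 0 for the others.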

How the data were processed

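Total RNA depleted of ribosomal RNA was sequenced in 6 libraries, 3 per group, taken from the recorded treatments. The deposited values were raw counts per Ensembl gene, without normalization. Per the submitters' processing notes the authors used CASAVA 1.8.2, STAR 2.6.1c and featureCounts 1.5.2 on GRCh38; neither the strand setting nor the handling of multiply mapped reads is stated in the sources read. Symbols, exons, coordinates and GC content came from GENCODE 44 (GRCh38), a later release than that used for counting, and promoters from RefSeq.

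Genes with CPM above 1 in at least 3 libraries were kept (16974 of 58051; 18780 had no count). Counts were tested with edgeR 4.0.16 (TMM scaling, robust glmQLFit and then glmQLFTest) under R 4.3.3, with Benjamini-Hochberg adjustment over all tested genes. SE was the size of the log2 fold change over the square root of F, and 95% intervals used the t quantile. The fit was tested on simulated data. Alternatives used DESeq2 1.42.0, limma 3.58.1, other scalings and filters, left-out libraries, the replicate block and a GC correction. CPM errors cover these libraries only; levels per kb used exonic bases.

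Same-numbered libraries of the 2 groups correlated in their deviations from the group means (r = 0.53, 0.69 and 0.27). The replicate number was therefore taken to pair them. Among libraries of unlike number, r was 0.14 for LMB 1 with LMB+auxin 3 and for LMB 3 with LMB+auxin 1, and negative for the rest. The pairing was thus clearest for number 2 and weakest for number 3. The pairing comes from these values and the shared numbers in the labels, which name no batch.

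The genes and lists were chosen with earlier results of these data known. Named genes were the 10 genes, 12 fixed partners, TPR, the highest and lowest gene of each list and any called gene, and the 5 most alike in profile; genes past an adjusted p under 0.05 in the block fit but under the fold limit, and SBDSP1, were added after their values were seen.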

Additional observations from a re-analysis of the deposited data

How the results depend on the processing

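Across 21 alternatives for each of the 10 genes (210 values) 0 were called, 10 turned sign, and 5 genes (NMD3, SBDS, LTV1, RIOK1 and RIOK2) kept theirs throughout. The GC correction turned EIF6 to 0.035 (0.035 with the replicate block as well). The sign also turned without LMB replicate 2 and LMB+auxin replicate 1 for PNO1 (-0.0023 and -0.012), LMB replicate 1 and LMB+auxin replicate 2 for NOB1 (-0.0031 and -0.047), LMB replicate 2, LMB+auxin replicate 1 and LMB+auxin replicate 3 for TSR1 (-0.032, -0.0081 and -0.0062) and LMB+auxin replicate 1 for BYSL (0.018). Over the 6 fits that leave out 1 library the values ran from -0.012 to 0.25 for PNO1, -0.047 to 0.16 for NOB1, -0.032 to 0.11 for TSR1, -0.13 to 0.018 for BYSL, 0.0055 to 0.19 for SBDS, 0.026 to 0.14 for LTV1, 0.069 to 0.18 for RIOK2, 0.047 to 0.10 for RIOK1, 0.086 to 0.12 for NMD3 and -0.076 to -0.038 for EIF6. The lowest values of SBDS, LTV1, RIOK2, RIOK1, NMD3 and PNO1 came without LMB+auxin replicate 1. The median of the 10 genes ran from 0.022 (without LMB+auxin replicate 1) to 0.11 (with the replicate block, without replicate 2) over all alternatives.

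Genes called over all tested genes numbered 1. DESeq2 called 11, library size alone 0 (736 at an unadjusted p under 0.05), no filter on low counts 39 and the GC correction 0 (608 at an unadjusted p under 0.05). The replicate block called 202, or 745 by adjusted p alone, DESeq2 with the replicate block 31, library size alone with the replicate block 253, and the replicate block with GC correction 147. Leaving out 1 library gave 0 to 5 (0 in edgeR for 4 of the 6, with 368 to 683 at an unadjusted p under 0.05), and leaving out 1 pair under the block 133, 158 and 134 (pairs 1, 2 and 3). By adjusted p alone the replicate block called 2 other pre-60S factors, 3 processome genes and 1 gene of RNA polymerase I, where the fit without it called 0 of each. The block changed no call of the 10 genes. The count of the 10 genes that differ between replicate pairs was 4, and was 0 without replicate 2 and 5 without replicate 1; DESeq2 gave 4 (15.1% of all genes) and library size alone gave 5 (38.3%). The causes were not tested. The lowest count of any of the 10 genes was 583, in BYSL. In the block fit BYSL had the largest SE of the 10, 0.066, and TSR1, with the highest counts, the smallest, 0.044. The part of depth in this was not tested.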
